A study of Mus musculus with 10 samples.

Results

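Mast cell genes were examined in arthritic mouse joints as a set of 9 genes, represented by 13 of the 39993 probe sets of the array and taken from 18128 genes in all. The set held the IgE receptor subunits Ms4a2 and Fcer1a, the protease genes Cpa3, Cma1, Mcpt4, Tpsb2 and Tpsab1, the growth factor receptor Kit and the histamine-forming enzyme Hdc. A gene's probe sets were those whose platform annotation named that gene alone, and the probe set with the highest mean over the 10 arrays stood for the gene. The probe sets were thus selected on their mean score over all arrays, both groups alike, and the genes were picked with an earlier comparison of Ms4a2 between the groups in view. The values of Ms4a2 between groups are therefore a description.

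Arthritis had been induced in all 10 mice, males of the DBA/1J strain, and each gave 1 Affymetrix array of synovium, taken from the left hind leg after muscle and skin had been cleaned away. The model, CAIA, starts with an antibody to type II collagen (1 mg into the peritoneum, day 8), adds LPS, a bacterial endotoxin that aggravates the inflammation (25 µg, day 11), and ended here on day 12. The 5 vehicle mice were dosed with the corn oil carrier alone, and the 5 maslinic acid mice swallowed 200 mg/kg of that olive triterpene daily in the same oil. The mice had arrived aged 5 weeks and carry an age label of 8 weeks. How the 5 mice of either group were selected for arrays is not stated, and untreated mice were not analysed here. The number of arrays limits the precision.

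Mast cells live in connective tissue, including the joint lining, and carry granules filled with histamine, proteoglycan and proteases. IgE bound to the high-affinity receptor, built from an alpha chain (Fcer1a), a beta chain (Ms4a2) and a gamma chain dimer, triggers their release when antigen crosslinks it. The proteases fall into chymases (Cma1, Mcpt4), tryptases (Tpsb2, Tpsab1) and the carboxypeptidase Cpa3. Basophils, circulating relatives of mast cells, share the receptor chains, and in the mouse they carry the protease Mcpt8 in place of the chymases. Because RNA was taken from whole tissue, fewer cells of a type and less RNA per cell cannot be told apart in any value below.

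Each probe set's deposited value is a score with 6 decimals whose scale is unknown. The scores differed very little between arrays, with a median SD of 6.68e-06 over all probe sets. Values per mouse are therefore given in steps of the last decimal, 0.000001, above the lowest of the 10 arrays, which sets each gene's lowest array to 0. Steps are not fold changes, and the steps of different genes are not comparable. Differences between groups are given as Hedges' g, the maslinic acid mean minus the vehicle mean in SDs within groups, with a 95% confidence interval and n = 5 per group. All 9 genes had 10 distinct values over the 10 arrays. The arrays' own medians over all probe sets spanned 272 steps, with vehicle replicate 3 lowest, so scaling the arrays by their medians moves genes of a small range. Vehicle replicates 3 and 5 also had the lowest array quality weights in limma, 0.401 and 0.309 against 0.809 to 2.25 for the other arrays. Synovial lining genes had mean scores of 11.55 for the lubricin gene Prg4 and 6.92 for the hyaluronan synthase Has1. Genes of other tissue were also high. Skeletal muscle genes ran from 6.87 (Myh2) to 13.26 (Acta1), although muscle had been cleaned away. Neutrophil genes ran from 8.20 (Cxcr2) to 13.92 (S100a9), and progenitor and erythroid genes from 6.94 (Flt3) to 11.70 (Mpo). How much such tissue each sample held was not tested. Apart from Cpa3 (8.35) and Hdc (8.54), the mast cell genes had mean scores from 6.78 (Fcer1a) to 7.19 (Kit). These are close to the median level of all probe sets, 6.74. The file holds no detection calls, so no gene can be called absent, and how far these genes lie above background is not known.

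Promoters are shown because GATA2, a GATA-binding factor, is a known regulator of mast cell genes. Those printed are from 2 sets of genes that each varied together over mice on the deposited scores. Ms4a2, Fcer1a and Cpa3 are from 1 set, and Cma1 and Mcpt4 from the other. The sets did not vary with each other: Pearson's r between their genes ran from -0.44 to 0.40. Kit and Hdc, with r = 0.61 between them, are not printed. The RefSeq table (build GRCm38.p6) held windows from 250 bases before to 50 bases after the start site for 7 of the 9 genes; Tpsb2 and Tpsab1 had no entry in it. Windows are printed 5′ to 3′ on the gene's strand, which is the minus strand for all 5, with GATAA or its reverse complement TTATC in capitals. They lie at chr19:11623670-11623969 (Ms4a2), chr1:173227180-173227479 (Fcer1a), chr3:20242132-20242431 (Cpa3), chr14:55944626-55944925 (Cma1) and chr14:56062261-56062560 (Mcpt4).
Ms4a2: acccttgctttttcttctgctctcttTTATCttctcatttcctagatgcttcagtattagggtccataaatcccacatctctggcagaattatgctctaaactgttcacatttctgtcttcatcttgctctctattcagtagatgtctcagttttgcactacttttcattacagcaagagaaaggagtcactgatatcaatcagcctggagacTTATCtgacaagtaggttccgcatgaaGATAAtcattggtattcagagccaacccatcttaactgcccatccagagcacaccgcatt
Fcer1a: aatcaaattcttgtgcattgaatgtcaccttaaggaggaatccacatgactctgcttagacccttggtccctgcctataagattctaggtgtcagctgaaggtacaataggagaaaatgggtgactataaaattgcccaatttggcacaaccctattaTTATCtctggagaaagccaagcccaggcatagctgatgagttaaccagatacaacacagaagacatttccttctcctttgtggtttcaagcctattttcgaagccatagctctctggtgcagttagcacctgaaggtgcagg
Cpa3: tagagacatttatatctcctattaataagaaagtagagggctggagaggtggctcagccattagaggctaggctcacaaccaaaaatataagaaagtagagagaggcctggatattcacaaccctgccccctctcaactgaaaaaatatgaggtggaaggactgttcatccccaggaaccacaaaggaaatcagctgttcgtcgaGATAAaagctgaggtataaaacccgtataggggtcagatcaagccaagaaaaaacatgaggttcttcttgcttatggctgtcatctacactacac
Cma1: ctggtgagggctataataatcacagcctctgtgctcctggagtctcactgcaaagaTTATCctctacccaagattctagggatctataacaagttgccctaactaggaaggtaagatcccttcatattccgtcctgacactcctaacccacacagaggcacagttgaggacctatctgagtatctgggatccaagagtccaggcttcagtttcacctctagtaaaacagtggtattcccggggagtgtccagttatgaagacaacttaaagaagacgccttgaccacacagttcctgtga
Mcpt4: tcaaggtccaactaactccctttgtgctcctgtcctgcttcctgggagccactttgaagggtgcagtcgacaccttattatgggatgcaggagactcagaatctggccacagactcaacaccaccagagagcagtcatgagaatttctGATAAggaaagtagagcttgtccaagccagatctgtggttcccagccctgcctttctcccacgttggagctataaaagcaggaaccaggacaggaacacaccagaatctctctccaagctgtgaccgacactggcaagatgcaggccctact

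The Ms4a2 window held 3 matches, whose first bases lie at -224, -37 and -10 from the start site. Of 32851 windows of this length in the table, 0.938% held 3 or more. The other 4 printed windows held 1 match each, at -92 in Fcer1a, -45 in Cpa3, -194 in Cma1 and -102 in Mcpt4, and 25.4% of all windows held at least 1. The Kit and Hdc windows held none. The E-box CANNTG, searched because the mast cell factor MITF binds such sites, was found in the windows of Fcer1a (3 matches), Cpa3 (2), Cma1 (1), Kit (1) and Hdc (1) and in 72.3% of all windows. Its variant CATGTG, counted on either strand and also part of the E-box count, was found in Fcer1a alone of the 7, against 14.2% of all windows. A match is only a run of letters and is not evidence of binding.

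Maslinic acid against vehicle was tested first over all genes. Of 18038 genes with any variation, 0% passed limma's moderated test after Benjamini-Hochberg adjustment (lowest adjusted p = 0.458), and 8.6% had an unadjusted p under 0.05. Of the 9 mast cell genes 0 passed (adjusted p between 0.502 and 1 in limma), and 1, Ms4a2, had an unadjusted p under 0.05, on the lower side, where 4.36% of all genes lay. By the exact Wilcoxon test 0 genes passed after adjustment, with 1224 genes and 1 of the 9 at an unadjusted p under 0.05. Their median g was -0.02, against 0.0 for all genes. Mean scores were lower with maslinic acid for 5 of the 9, against 48.5% of all genes. That count depended on the scaling and on single arrays: 7 of the 9 were lower after quantile normalization (median g = -0.71) and 7 once arrays were median-centred (-0.32), 9 with array weights (-0.24) and 8 without vehicle replicates 3 and 5 (-0.20). The groups did not overlap in 1 of the 9, Ms4a2, against 1.39% of all genes, or 0.737% counting those lower with maslinic acid. The 1 gene in each of these counts is Ms4a2, whose difference between the groups was in view when the genes were picked. These counts are therefore a description and no sign that the set stands out from all genes.

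**Figure D1:**
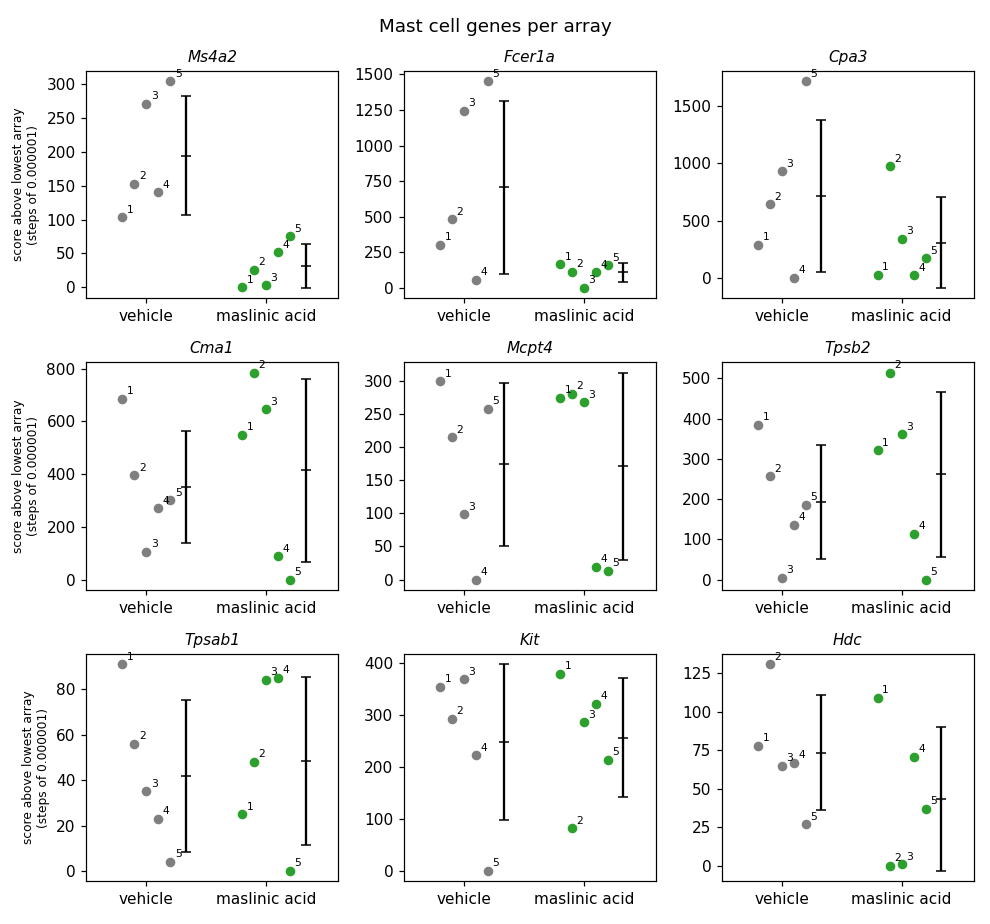
Score of each of the 9 genes on each array, in steps of 0.000001 above that gene's lowest array (vertical axes, scales differ); points are mice numbered by replicate, and the bar is the mean ± SD (n = 5). The groups are apart for Ms4a2, where vehicle mice lie at 103 to 304 steps and maslinic acid mice at 0 to 75, and overlap for the other 8 genes.

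Ms4a2 encodes the beta chain, which amplifies the signal of the IgE receptor (chr19:11615517-11623790, GRCm38.p6). Vehicle mice 1 to 5 had 103, 153, 271, 140 and 304 steps, and maslinic acid mice 1 to 5 had 0, 26, 3, 52 and 75 steps. Every vehicle mouse lay above every maslinic acid mouse, with vehicle replicates 3 and 5 highest. The means were 194 ± 87.9 steps in vehicle and 31.2 ± 32.2 steps in maslinic acid mice (SD, n = 5 each). The difference did not pass, and g was -2.22 (95% CI -3.74 to -0.64, limma adjusted p = 0.502). This g was -1.05 after quantile normalization and -1.35 once arrays were median-centred. The gene's other probe set, with a lower mean score (6.59 against 7.17), correlated with it at r = 0.84 over the 10 arrays. On that probe set vehicle mice had 78, 240, 264, 151 and 239 steps and maslinic acid mice 0, 165, 1, 57 and 84. The groups overlapped there, through vehicle replicate 1 and maslinic acid replicate 2, and g was -1.64 (95% CI -2.97 to -0.24).

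Fcer1a encodes the alpha chain, the subunit that binds IgE (chr1:173221269-173227232). Its vehicle mice had 302, 483, 1244, 60 and 1452 steps, and its maslinic acid mice 167, 114, 0, 111 and 160 steps. The vehicle mean of 708 ± 607 steps (SD, n = 5) rested on replicates 3 and 5, while the maslinic acid mice kept within a narrow span (110 ± 66.8 steps). The difference did not pass (g = -1.25, 95% CI -2.49 to 0.05; limma adjusted p = 0.58), and vehicle replicate 4 lay below 4 of the 5 maslinic acid mice. The third chain, Fcer1g, which mast cells share with macrophages and neutrophils, gave g = -0.27 (95% CI -1.39 to 0.86; limma adjusted p = 0.886).

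Cpa3, mast cell carboxypeptidase A (chr3:20215616-20242209), was the protease gene whose values came nearest to those of the receptor chains. Its vehicle mice had 289, 643, 930, 0 and 1717 steps, and its maslinic acid mice 27, 976, 341, 25 and 171 steps. Vehicle replicate 5 was highest, and the groups overlapped over most of their range. The difference was within the spread between mice (g = -0.68, 95% CI -1.82 to 0.51; limma adjusted p = 0.709), and g was -0.01 without vehicle replicates 3 and 5 and -1.14 after quantile normalization.

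The chymase and tryptase genes showed no detectable difference between the groups. For Cma1, mast cell chymase 1 (chr14:55941451-55944675), vehicle mice had 685, 395, 106, 271 and 301 steps and maslinic acid mice 549, 785, 646, 89 and 0. Maslinic acid replicates 1, 2 and 3 were high and replicates 4 and 5 low, so that this group held both the highest and the lowest mouse (g = 0.19, 95% CI -0.94 to 1.31; limma adjusted p = 0.92). Mcpt4, a second chymase from the same chromosome (chr14:56059744-56062310), had 300, 215, 99, 0 and 258 steps in vehicle mice and 275, 281, 268, 19 and 13 in maslinic acid mice. The split inside the maslinic acid group fell on the same mice, and g was -0.02 (95% CI -1.14 to 1.10; limma adjusted p = 1).

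Tpsb2, tryptase beta 2 (chr17:25366308-25368096), had 384, 256, 4, 136 and 186 steps in vehicle mice and 321, 514, 361, 113 and 0 in maslinic acid mice. Here again maslinic acid replicates 1 to 3 lay above replicates 4 and 5, and vehicle replicate 3 was near the bottom (g = 0.35, 95% CI -0.79 to 1.47; limma adjusted p = 0.848). A second Tpsb2 probe set took only 3 distinct values over the 10 arrays and did not follow the first (r = -0.19). Tpsab1, the other tryptase (chr17:25343245-25345562), is annotated as a transcribed pseudogene in the C57BL/6J reference, a strain other than the one used here. It had 91, 56, 35, 23 and 4 steps in vehicle and 25, 48, 84, 85 and 0 steps in maslinic acid mice, a small range with overlapping groups (g = 0.17, 95% CI -0.96 to 1.29; limma adjusted p = 0.928). The signs of these 4 genes are not settled: g was -0.24 for Cma1, -0.13 for Tpsb2 and -0.22 for Tpsab1 with array weights, -0.32 for Tpsab1 with arrays centred on their medians and -0.03 for Tpsb2 after quantile normalization, while Mcpt4 was at 0.26 without maslinic acid replicate 5. The paralogous chymases and the tryptases are similar in sequence, and how far their probe sets cross-react was not tested.

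Kit, the receptor for stem cell factor on which mast cells depend (chr5:75574987-75656722), had 354, 292, 368, 222 and 0 steps in vehicle mice and 378, 82, 285, 321 and 213 in maslinic acid mice. Vehicle replicate 5, the highest mouse for Ms4a2, Fcer1a and Cpa3, was the lowest for Kit. The groups overlapped (g = 0.06, 95% CI -1.06 to 1.18; limma adjusted p = 0.984), and g was -0.49 without vehicle replicate 5, -0.19 after quantile normalization and -0.15 with arrays centred on their medians. Hdc, histidine decarboxylase (chr2:126593659-126624025), had 78, 131, 65, 67 and 27 steps in vehicle and 109, 0, 1, 71 and 37 in maslinic acid mice. Maslinic acid replicates 2 and 3 were lowest, and the difference was within the spread between mice (g = -0.64, 95% CI -1.78 to 0.54; limma adjusted p = 0.731), and g was -2.27 after quantile normalization and -0.18 over the mean of its probe sets. The second probe sets of these genes followed the first at r = 0.72 for Kit and 0.82 for Hdc, with g of -0.55 and -0.07.

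**Figure D2:**
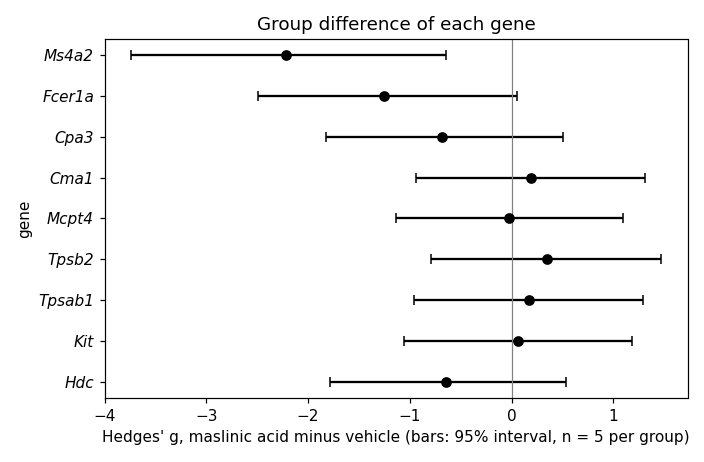
Hedges' g of each gene, maslinic acid minus vehicle (horizontal axis, in SDs within groups); points are the estimates and bars the 95% confidence intervals, n = 5 mice per group. The interval of Ms4a2, -3.74 to -0.64, lies below 0, and those of the other 8 genes include 0. The intervals are not adjusted for the number of genes. Ms4a2, whose difference was in view when the genes were picked, did not pass in limma (adjusted p = 0.502).

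Whether the protease genes follow Ms4a2 from mouse to mouse was asked next, by correlation over the 10 arrays. Each gene that varied was correlated with Ms4a2 (18037 genes), with permutation p-values over arrays and adjustment over all of them, because Ms4a2 shares its pattern with many genes. At an unadjusted p under 0.05 with a positive r were 11.3% of all genes, and 0% passed after adjustment. Among the 8 other mast cell genes, Fcer1a and Cpa3 were at an unadjusted p under 0.05.

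Fcer1a followed Ms4a2 closely. Pearson's r was 0.92 (permutation p = 0.00114, adjusted p = 0.0919), which placed Fcer1a 29th of 18037 genes, and Spearman's rho was 0.67 (permutation p = 0.0386, adjusted p = 0.372). With each group centred on its own mean r was 0.91. Without vehicle replicates 3 and 5, the 2 arrays farthest from the median of Ms4a2, r was 0.60.

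Cpa3 was the only protease gene of the 5 with a positive r to Ms4a2 on the deposited scores. Its r was 0.69 (permutation p = 0.0271, adjusted p = 0.151) and its rho 0.39 (permutation p = 0.262, adjusted p = 0.614), at rank 1486 of 18037. Without vehicle replicates 3 and 5 r was -0.01, and without vehicle replicate 5 alone it was 0.41. Without vehicle replicate 5 and maslinic acid replicate 2, the 2 arrays farthest from the median of Cpa3, it was 0.74, and without maslinic acid replicate 2 alone 0.84. The relation therefore rests on vehicle replicates 3 and 5 jointly. With Fcer1a, Cpa3 had r = 0.81 (permutation p = 0.00719, adjusted p = 0.0794) and rho = 0.59 (permutation p = 0.0803, adjusted p = 0.416), and r was 0.30 without the same arrays.

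The chymases and tryptases did not follow Ms4a2 on the deposited scores. Pearson's r was -0.44 for Cma1 (permutation p = 0.208, adjusted p = 0.424), with rho = -0.36 (permutation p = 0.314, adjusted p = 0.649). Tpsb2 was at r = -0.50 (permutation p = 0.147, adjusted p = 0.35), with rho = -0.42 (permutation p = 0.234, adjusted p = 0.589). Neither negative relation passed. Mcpt4 was at r = -0.13 (permutation p = 0.714, adjusted p = 0.846) with rho = -0.35 (permutation p = 0.331, adjusted p = 0.663). Tpsab1 was at r = -0.41 (permutation p = 0.245, adjusted p = 0.465) with rho = -0.26 (permutation p = 0.471, adjusted p = 0.759). Without vehicle replicates 3 and 5 these r were -0.34, -0.37, -0.37 and -0.10 for Cma1, Tpsb2, Mcpt4 and Tpsab1. The median r of the 5 proteases with Ms4a2 was -0.41.

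Scaling changed this picture for some of the genes. With arrays centred on their medians r with Ms4a2 was -0.33 for Cma1 and -0.24 for Tpsb2 but 0.28 for Mcpt4 and 0.68 for Tpsab1, and the median of the 5 turned to 0.28. After quantile normalization Mcpt4 was at 0.72, Cma1 at -0.17, Tpsb2 at -0.03 and Tpsab1 at -0.10, with a median of -0.03. Tpsab1 spans 91 steps, less than the 272 steps by which array medians differed. Fcer1a stayed at 0.92 with centred arrays and 0.78 after quantile normalization, and Cpa3 at 0.72 and 0.67.

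**Figure D3:**
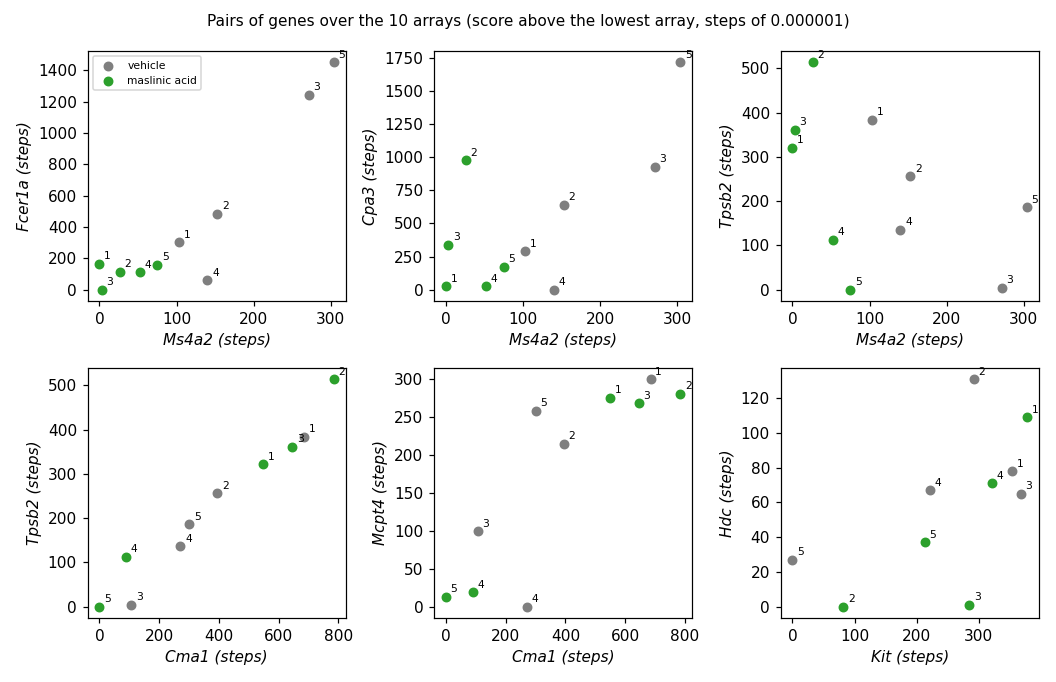
Scores of 6 pairs of genes over the 10 arrays, both axes in steps of 0.000001 above the gene's lowest array; points are mice, grey for vehicle and green for maslinic acid, numbered by replicate. Fcer1a and Cpa3 are highest with Ms4a2 in vehicle replicate 5, Tpsb2 runs along Cma1 through both groups (r = 0.98), and Tpsb2 shows no rise with Ms4a2 (r = -0.50).

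The chymase and tryptase genes instead varied with each other. Cma1 and Tpsb2, which lie on different chromosomes, had r = 0.98 and rho = 0.99 over the 10 arrays. Both gave a permutation p of 1e-05, the smallest that 100000 permutations can give, and an adjusted p of 0.18, which cannot pass over 18037 genes unless several genes share that p. Tpsb2 ranked 1st of 18037 genes by its r with Cma1, and Cma1 ranked 1st by its r with Tpsb2. The relation did not rest on extreme mice: r was 0.96 without maslinic acid replicates 2 and 5, 0.98 with each group centred, 0.98 without vehicle replicates 3 and 5, 0.96 with arrays centred on their medians and 0.62 after quantile normalization.

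Mcpt4 belonged to the same pattern. Its r with Cma1 was 0.85 (permutation p = 0.00411, adjusted p = 1) and its rho 0.89 (permutation p = 0.00111, adjusted p = 1), at rank 8 of 18037. With Tpsb2, Mcpt4 had r = 0.82 (permutation p = 0.00524, adjusted p = 0.998) and rho = 0.88 (permutation p = 0.00172, adjusted p = 1). Without maslinic acid replicates 2 and 5, r was 0.81 with Cma1 and 0.79 with Tpsb2. At an unadjusted p under 0.05 with a positive r were 2 of the 8 other genes for Cma1 (2.07% of all genes), 2 for Mcpt4 (2.21%), 2 for Tpsb2 (2.35%) and 0 for Tpsab1 (2.12%). For Mcpt4, r with Cma1 was 0.71 with centred arrays and 0.39 after quantile normalization, and r with Tpsb2 0.74 and 0.57. Tpsab1 was less close, at r = 0.44 with Cma1 (permutation p = 0.201, adjusted p = 1) and rho = 0.45 (permutation p = 0.192, adjusted p = 1), and r was -0.07 with arrays centred on their medians. Genes of other cells shared the pattern. With Cma1, Mcpt4 and Tpsb2, r was 0.76, 0.73 and 0.72 for Prg4 and 0.69, 0.82 and 0.69 for the fibroblast gene Pdpn. It was -0.76, -0.83 and -0.75 for the muscle gene Mb, but -0.17, -0.35 and -0.12 for the fibroblast gene Cdh11. None of these passed after adjustment, and a correlation with the chymases or Tpsb2 is not particular to mast cell genes.

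Cpa3 was not close to the chymases and tryptases over all 10 arrays. Its r was 0.40 with Mcpt4 (permutation p = 0.252, adjusted p = 0.465; rho = 0.44, permutation p = 0.203, adjusted p = 0.521), 0.08 with Cma1 (permutation p = 0.83, adjusted p = 0.914; rho = 0.36, permutation p = 0.31, adjusted p = 0.626) and 0.08 with Tpsb2 (permutation p = 0.822, adjusted p = 0.91; rho = 0.28, permutation p = 0.425, adjusted p = 0.716). Without vehicle replicates 3 and 5, whose levels of Cpa3 were high and of Tpsb2 low or middling, these r were 0.54, 0.57 and 0.66. Without vehicle replicate 5 and maslinic acid replicate 2 they were 0.19, -0.07 and -0.18, and r with Fcer1a was 0.88. With Mcpt4, r was 0.66 both after quantile normalization and once arrays were median-centred. Which genes Cpa3 ran with thus depended on which arrays were left out. Over the 10 pairs of protease genes r ran from -0.30 to 0.98 with a median of 0.42, and over all 36 pairs of the 9 genes the median was -0.03.

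Kit and Hdc followed neither Ms4a2 nor the chymases and tryptases on the deposited scores. Their r with Ms4a2 was -0.30 (permutation p = 0.409, adjusted p = 0.619) and 0.09 (permutation p = 0.804, adjusted p = 0.902), with rho of -0.22 and 0.08 (permutation p = 0.536 and 0.839, adjusted p = 0.796 and 0.944). For Kit it was 0.27 with centred arrays and 0.70 after quantile normalization, and for Hdc 0.78 and 0.76. Between Kit and Hdc r was 0.61 (permutation p = 0.065, adjusted p = 0.317) and rho 0.68 (permutation p = 0.0355, adjusted p = 0.495), and r was 0.39 without vehicle replicate 5 and maslinic acid replicate 2 and 0.24 after quantile normalization. Positive r at an unadjusted p under 0.05 were reached by 0 of the 8 other genes for Kit (11.1% of all genes) and for Hdc (4.27%), and 0.116% of all genes passed after adjustment for Kit. Kit and Cpa3 ran opposite to each other on the deposited scores (r = -0.67, permutation p = 0.0335, adjusted p = 0.14; rho = -0.37, permutation p = 0.294, adjusted p = 0.611). Without vehicle replicate 5 and maslinic acid replicate 2 their r was 0.32, and after quantile normalization it was 0.06. It was -0.62 without vehicle replicates 3 and 5 and -0.27 once arrays were median-centred.

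**Figure D4:**
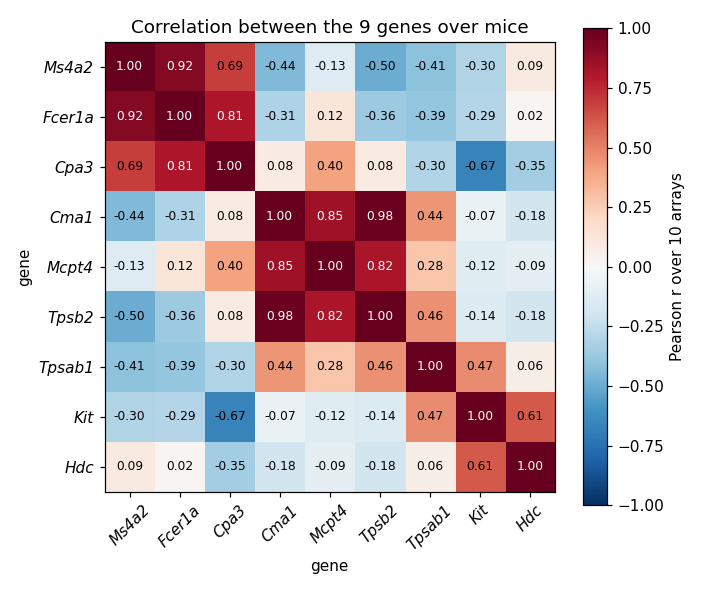
Pearson's r over the 10 arrays for each pair of the 9 genes (both axes list the genes; colour and number give r). Ms4a2, Fcer1a and Cpa3 have r of 0.69 to 0.92, Cma1, Mcpt4 and Tpsb2 have r of 0.82 to 0.98, and r of Ms4a2 with those 3 is between -0.50 and -0.13.

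Basophil genes were compared because basophils share the receptor chains. Of the 7 genes of the basophil list 6 were measured, of which 5 had a lower mean with maslinic acid and 1 an equal one (median g = -0.79; 48.5% of all genes were lower). After quantile normalization 5 were lower with a median of -0.18, and once arrays were median-centred 6 were (-0.52). The first of the list, Mcpt8, the basophil protease, had 1535, 1425, 2128, 573 and 2384 steps in vehicle and 536, 0, 115, 344 and 698 in maslinic acid mice. Vehicle replicates 3 and 5 were highest here as well, and only vehicle replicate 4 lay below a maslinic acid mouse (g = -2.13, 95% CI -3.62 to -0.58; limma adjusted p = 0.508). Cd200r3, a receptor found on basophils and mast cells, had g = -1.74 (95% CI -3.10 to -0.31; limma adjusted p = 0.53).

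On the deposited scores both genes ran with the receptor chains and not with the chymases. Mcpt8 had r = 0.91 with Ms4a2 (permutation p = 0.00058, adjusted p = 0.0919; rho = 0.85, permutation p = 0.00294, adjusted p = 0.282), with r at 0.71 without vehicle replicates 3 and 5 and 0.51 after quantile normalization. With Fcer1a, Mcpt8 had r = 0.91 (permutation p = 0.00013, adjusted p = 0.0435; rho = 0.84, permutation p = 0.00407, adjusted p = 0.211) and 0.86 without those arrays, and 0.277% of all genes passed for Fcer1a in the positive direction. With Cma1 and Tpsb2, Mcpt8 was at r = -0.30 and -0.37 (permutation p = 0.395 and 0.283, adjusted p = 1 and 0.998). Cd200r3 had r = 0.90 with Ms4a2 (permutation p = 0.00074, adjusted p = 0.0919; rho = 0.70, permutation p = 0.0323, adjusted p = 0.358) and 0.67 without vehicle replicates 3 and 5. With Fcer1a, Cd200r3 had r = 0.86, and 0.50 without vehicle replicates 3 and 5, and with Cma1 it had r = -0.18. With the chymase Mcpt4, r was 0.11 for Mcpt8 and 0.09 for Cd200r3. These r rose to 0.46 and 0.40 after quantile normalization and to 0.42 and 0.36 with arrays centred on their medians. The other measured genes of the list did not run closely with the receptor chains. With Ms4a2, r was 0.46 for Il18r1, 0.26 for Itga2, 0.19 for Gata2 and -0.32 for Il3ra. With Fcer1a these r were 0.28, 0.16, 0.09 and -0.47. The mean score of the basophil list, in SDs from each gene's mean, was -0.07 to 0.69 in vehicle and -0.77 to -0.06 in maslinic acid mice, and its part in the values of Ms4a2 and Fcer1a was not tested.

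**Figure D5:**
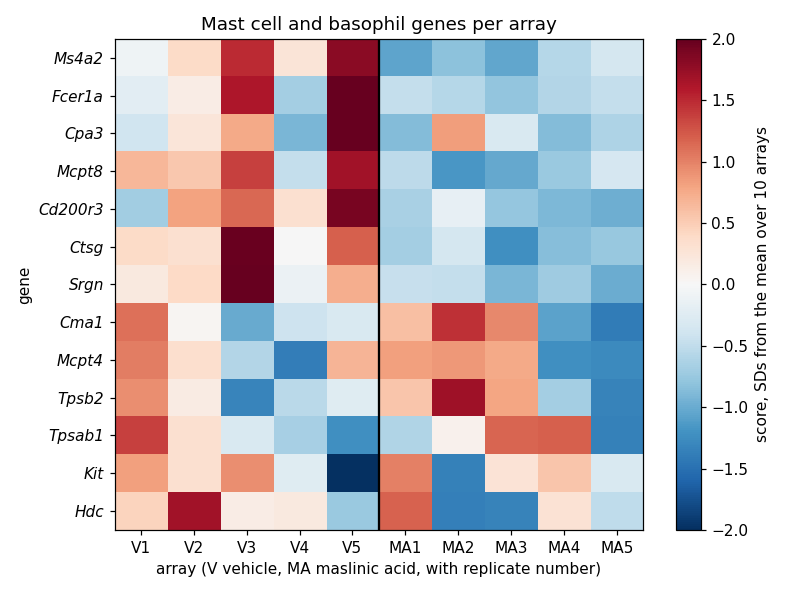
Scores of the 9 mast cell genes with Mcpt8, Cd200r3, Ctsg and Srgn on each array (columns; V vehicle, MA maslinic acid, with replicate number), in SDs from the gene's mean over the 10 arrays, with the colour scale clipped at its ends. The top rows, Ms4a2 to Srgn, are high in V3 and V5 and mostly low in MA1 to MA5, while Cma1, Mcpt4 and Tpsb2 are high in MA1 to MA3 and V1 and low in MA4 and MA5.

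The other mast cell genes were counted next. Of the list of 20 further identity and granule genes 16 were measured. Maslinic acid mice had the lower mean in 10 of these and the higher mean in 5 (median g = -0.30), where 48.5% of all genes were lower. At an unadjusted limma p under 0.05 were 3 lower genes (Ctsg, Srgn and Slc18a2), beside 4.36% of all genes, and 0 higher genes. After adjustment 0 passed. With arrays centred on their medians 15 of the 16 were lower, and after quantile normalization 8 of the 14 that varied. Cathepsin G (Ctsg), a protease of mast cells and above all of neutrophils, had 1128, 1080, 2239, 850 and 1694 steps in vehicle and 378, 614, 0, 265 and 327 in maslinic acid mice. The groups did not overlap (g = -2.28, 95% CI -3.82 to -0.68; limma adjusted p = 0.502). Serglycin (Srgn), the granule proteoglycan that binds these proteases and is made by many blood cells, gave g = -1.81 (95% CI -3.20 to -0.36; limma adjusted p = 0.522). Their r with Ms4a2 was 0.91 (permutation p = 0.00053, adjusted p = 0.0919; rho = 0.82, permutation p = 0.0055, adjusted p = 0.296) and 0.83 (permutation p = 0.00223, adjusted p = 0.0922; rho = 0.77, permutation p = 0.0125, adjusted p = 0.315), and without vehicle replicates 3 and 5 it was 0.79 and 0.72. After quantile normalization r with Ms4a2 was 0.49 for Ctsg, and Srgn no longer varied between arrays. Mrgprb1, a receptor of the connective tissue mast cell family that was picked out after its values were seen, ranked 9th of 18037 by its r with Tpsb2 (0.86, permutation p = 0.00144, adjusted p = 0.998; rho = 0.77, permutation p = 0.0118, adjusted p = 1) and 15th with Cma1. Its r with Tpsb2 was 0.80 without maslinic acid replicates 2 and 5 but 0.05 with arrays centred on their medians. The mucosal mast cell proteases Mcpt1 and Mcpt2 gave g of -0.44 (95% CI -1.57 to 0.71) and -0.36 (95% CI -1.48 to 0.79), with limma adjusted p of 0.816 and 0.844.

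Genes of receptor signalling, growth and histamine handling lay on both sides of 0 on the deposited scores, and their balance changed with the scaling. Of 16 measured IgE receptor signalling genes 8 were higher and 8 lower (median g = 0.01), but 15 were lower once arrays were quantile normalized, 13 once they were median-centred and 13 without vehicle replicates 3 and 5. The adaptor Lat2 was at -2.15 (95% CI -3.64 to -0.59; limma adjusted p = 0.508), and the ubiquitin ligase Cblb, which restrains the receptor's signal, at 1.79 (95% CI 0.35 to 3.17; limma adjusted p = 0.522). The list of the Kit ligand and mast cell growth factors had 10 higher and 7 lower of 18, with 0 at an unadjusted p under 0.05. The balance turned to 5 higher and 11 lower after quantile normalization, 6 and 12 once arrays were median-centred, 7 and 11 with array weights, and 5 and 13 without vehicle replicates 3 and 5. Among them the ligand Kitl was at 0.60 (95% CI -0.57 to 1.74), the factor Gata2 at -0.99 (95% CI -2.18 to 0.25) and the factor Mitf at 1.15 (95% CI -0.12 to 2.38), with limma adjusted p of 0.749, 0.624 and 0.592. Of 8 histamine genes 3 were higher and 4 lower, but 0 and 8 once arrays were median-centred and 5 and 3 without vehicle replicates 3 and 5, with Slc18a2, the transporter that loads histamine into granules, at -1.42 (95% CI -2.70 to -0.08; limma adjusted p = 0.552). Among 8 genes of protease processing and inhibition 5 were higher and 3 lower (median g = 0.57), but 3 and 5 once arrays were median-centred (-0.25), with Serpinb1a, an inhibitor of neutrophil and mast cell proteases, at -1.44 (95% CI -2.73 to -0.09; limma adjusted p = 0.549).

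The genes most like Ms4a2, among those with 10 distinct values, were Shcbp1 (r = 0.96), Hsd11b1 (0.95), Spdl1 (0.95), Hgf (0.95), Slc23a1 (0.94) and Zfp953 (0.94) over the 10 arrays, each with a permutation adjusted p of 0.0919. The spindle protein Spdl1 and the growth factor Hgf are not mast cell markers. Those most like Cpa3 were Blvra (0.99), Selenok (0.99), Uba3 (0.98), Mtx2 (0.98), Commd2 (0.98) and Vps29 (0.98), with permutation adjusted p between 0.00859 and 0.00902, and 4.91% of all genes passed for Cpa3 in the positive direction. By Pearson's r, Cpa3 thus ran with 885 genes, and a correlation with Cpa3 is not particular to mast cell genes.

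Markers of other cells, only some of which can hold Kit, Hdc or granule proteases, moved as follows. Of the neutrophil list 9 of 10 genes were lower, against 48.5% of all genes (median g = -0.75, list score -0.42 to 1.10 in vehicle and -0.73 to -0.13 in maslinic acid mice). Of these, S100a8 and S100a9 took only 2 distinct values each. After quantile normalization only 3 genes of the list varied, 2 of them lower. Eosinophil markers were lower in 5 of 5 (-0.77; -0.59 to 1.51 and -1.11 to 0.18), and platelet markers in 6 of 6 (-1.12; -0.35 to 1.61 and -1.31 to 0.14). Melanocyte markers were higher in 3 and lower in 3 (-0.27; lower in 6 once arrays were median-centred), and progenitor and erythroid markers higher in 5 and lower in 4 (0.10). Muscle markers were higher in 10 of 10 (0.40; -1.68 to 0.78 and -0.81 to 0.92), and keratinocyte markers in 5 of 9 (0.11; 0 of 9 once arrays were median-centred). Macrophage markers were higher in 6 of 8 (0.32), synovial fibroblast markers in 8 of 8 (0.45; 4 of 8 without vehicle replicates 3 and 5) and endothelial markers in 7 of 8 (0.26). The endothelial count was 3 of 8 after quantile normalization, median-centring or array weights and 2 of 8 without vehicle replicates 3 and 5. Over the arrays, r with Ms4a2 was 0.87 for Camp but 0.02 for Ltf of the neutrophil list, and 0.79 for Ccr3 but 0.45 for Epx of the eosinophil list. For the fibroblast list it was -0.87 for Htra1 but 0.18 for Clic5. The pattern of Ms4a2 was thus not particular to basophil genes. No gene of these lists passed after adjustment in limma, the lowest mean score in any list was 5.48, so no marker is listed at 0, and their part in the values of the mast cell genes was not tested.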

How the data were processed

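Gene expression in the synovium of 10 mice was measured on Affymetrix arrays, per the labels' protocols from 100 ng of RNA labelled as biotinylated cRNA. The deposited values are scores of unknown scale that the authors made with R 3.2.1, per the submitters' processing notes; how background, normalization and probe sets were handled is not given in the sources used here. Of 39993 probe sets, 34202 named 1 gene, 931 several and 4860 none here; 34028 had an Entrez identifier in the RefSeq table, which changed 0 symbols. All deposited columns were used.

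The genes, the lists and the alternatives were chosen with earlier results of these data known. Named genes were the 9 members, the 2 genes of lowest p and the first 2 of each list, and the 6 most like Ms4a2 and Cpa3. Those on which no result turns are left to the counts. Further list genes are named only for their correlations. Maslinic acid was compared with vehicle on the deposited scores by a 2-sided moderated test without covariates (limma 3.58.1 under R 4.3.3, functions lmFit then eBayes) at a threshold of 0.05 after Benjamini-Hochberg adjustment over all genes. The prior degrees of freedom were 0.478, so variances were hardly shared. Of the genes tested, 90 of 18128 held 1 value on all arrays and were left out. Correlations used 100000 permutations of the arrays, two-sided, adjusted over 18037 genes. Replicates are separate mice per the labels, and the labels give no batch. Alternatives were other scalings, array weights, eBayes settings, filters, probe set choices, the replicate block, the exact Wilcoxon test and arrays left out. Same-numbered mice of the 2 groups were not paired: their deviations correlated between -0.39 and 0.35. Scripts were tested on simulated data. Python 3.11.15 with pandas 2.3.3, numpy 2.4.6, scipy 1.17.1 and matplotlib 3.10.9 was used.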

Additional observations from a re-analysis of the deposited data

Results flagged for a closer look

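Of 146 groups of 5 mice checked, for the 9 mast cell genes and 64 other named genes, 6 held a highest or lowest mouse that stood apart, and chance gives about 1 in 20. None of the 9 mast cell genes was among them. The gap to the nearest mouse, as a share of the group's range, was 0.806 for the highest vehicle mouse of Siglecf, 0.739 for the lowest vehicle mouse of Ckm and 0.748 for the lowest maslinic acid mouse of Cdh5. It was 0.81 for the lowest maslinic acid mouse of Spdl1, 0.8 for the lowest maslinic acid mouse of Slc23a1 and 0.713 for the highest maslinic acid mouse of Blvra.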

How the results depend on the processing

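The count of the 9 genes past the threshold was 0 under every alternative run, and that of all genes was 0 under all but limma's trended and robust eBayes, which called 1 (BC016579). Ms4a2, Fcer1a, Cpa3 and Hdc had a lower mean with maslinic acid under all alternatives run, though by only -0.01 for Cpa3 without vehicle replicates 3 and 5, and g of Ms4a2 was -1.05 and of Hdc -2.27 after quantile normalization; leaving out 1 mouse gave g of -2.78 to -1.98, -1.82 to -1.02, -1.05 to -0.35 and -1.15 to -0.36. The other 5 changed sign somewhere; the cause was not tested. After quantile normalization g was -0.03 for Tpsb2 and -0.19 for Kit, and with arrays centred on their medians -0.32 for Tpsab1 and -0.15 for Kit. With array weights it was -0.24 for Cma1, -0.13 for Tpsb2, -0.22 for Tpsab1 and -0.07 for Kit, and without vehicle replicates 3 and 5 -0.10 for Cma1, -0.20 for Tpsab1 and -0.29 for Kit. Leaving out 1 mouse gave -0.10 to 0.58 for Cma1, -0.34 to 0.26 for Mcpt4, -0.07 to 0.53 for Tpsab1, 0.03 to 0.78 for Tpsb2, -0.49 to 0.38 for Kit and -0.35 to 0.19 for the median of the 9.

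The median r of the proteases with Ms4a2 was -0.03 after quantile normalization and 0.28 with centred arrays, and -0.54 to -0.31 without 1 mouse. Single r with Ms4a2 turned to -0.01 for Cpa3 without vehicle replicates 3 and 5, the 2 arrays farthest from the median. Quantile normalization gave 0.72 for Mcpt4 and 0.70 for Kit, and centred arrays 0.28 for Mcpt4, 0.68 for Tpsab1 and 0.27 for Kit. For Hdc it was -0.38 with groups centred and -0.23 over the mean of its probe sets. Without 1 mouse, r ran from -0.58 to 0.27 for Kit, where vehicle replicate 5 gave the highest value, and from -0.10 to 0.34 for Hdc. The median r among the proteases stayed positive, at 0.28 to 0.59 without 1 mouse.

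With the replicate block, 0 of the 9 genes passed and g was -2.29 for Ms4a2; the block changed no call, and 2 of 5 vehicle arrays correlated best with their own number. Pairs of genes and the gene lists under other scalings, array weights or without vehicle replicates 3 and 5 were added after seeing the data.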
